A study of Rattus norvegicus with 70 samples.

Results

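The AMP-activated protein kinase (AMPK) genes were followed through the fat of adolescent rats that inhaled a polychlorinated biphenyl. The 9 genes were chosen by name, with earlier results of these data known. These were the 7 subunit genes Prkaa1, Prkaa2, Prkab1, Prkab2, Prkag1, Prkag2 and Prkag3, the upstream kinase gene Stk11 and the target gene Acacb. They are 9 of the 15319 genes in the count tables, found through their NCBI gene numbers, and the 1 condition set on measured values was a row in all 6 tables. Sequencing covered 3 fat depots, brown (BAT), subcutaneous (SAT) and visceral (VAT), in 70 libraries and 12 groups from 24 rats of the Sprague-Dawley strain. Rats with even numbers are labelled female and those with odd numbers male. All of them arrived when 28 days old, settled for 8 days and were trained in the nose-only apparatus. They were then assigned at random to sham or to PCB 52 (a chlorinated biphenyl found in indoor air), at 39 days of age for males and 42 days for females. Exposure lasted 4 h a day for 28 days, in air led over beads coated with PCB 52 at 12 L/min. What the sham rats breathed is not described beyond that word, and no transgene or other allele is named for any group. Each group had 6 rats, except that female SAT sham had 5 (no library of rat 4) and male VAT PCB 52 had 5 (no library of rat 21). A shared number is read here as the same rat; nothing in the labels says so in words, and p-values measure only the spread between these libraries.

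AMPK senses a falling energy charge and answers by switching off costly synthesis and switching on fuel use. It is built from a catalytic alpha subunit (Prkaa1 or Prkaa2), a scaffold beta subunit that binds glycogen (Prkab1 or Prkab2) and a gamma subunit that binds AMP, ADP and ATP (Prkag1, Prkag2 or Prkag3). Stk11 encodes LKB1, which phosphorylates the alpha subunit. Acacb encodes acetyl-CoA carboxylase 2, an enzyme at mitochondria whose product blocks fatty acid entry and which AMPK inhibits by phosphorylation. In fat the kinase bears on lipolysis, fatty acid oxidation and thermogenesis. Prkag3 is best known from fast skeletal muscle. A transcript level is not kinase activity, and in bulk tissue fewer cells of a type and less RNA per cell cannot be told apart.

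Stretches before the transcription start are shown for 2 of the gamma subunit genes, because Prkag3 rose with muscle transcripts in these libraries and Prkag1 was not called for it. Prkab2 and Prkaa2, which also rose with muscle transcripts in BAT, are not shown. The 2 stretches therefore cannot relate E-boxes to muscle transcripts. They are the 250 bases before the RefSeq start on build GRCr8, whereas the counts were made on rn6, so the coordinates belong to the sequence only. Prkag3 lies at chr9:83753630-83753879 on the minus strand and Prkag1 at chr7:131859485-131859734 on the minus strand. Capitals mark the E-box letters CANNTG, the pattern read by muscle and other basic helix-loop-helix factors.
Prkag3: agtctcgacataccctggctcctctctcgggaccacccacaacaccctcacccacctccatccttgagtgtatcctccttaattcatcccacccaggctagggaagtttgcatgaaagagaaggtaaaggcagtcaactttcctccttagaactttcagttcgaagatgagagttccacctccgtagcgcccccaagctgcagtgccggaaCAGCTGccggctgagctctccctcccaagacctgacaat
Prkag1: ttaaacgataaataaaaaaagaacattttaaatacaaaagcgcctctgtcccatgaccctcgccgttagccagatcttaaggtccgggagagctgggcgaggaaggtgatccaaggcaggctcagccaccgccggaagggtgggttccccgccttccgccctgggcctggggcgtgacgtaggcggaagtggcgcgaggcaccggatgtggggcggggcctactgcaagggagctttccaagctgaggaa
Prkag3 holds 1 such match, CAGCTG, and 7 CG pairs at 54.4% G and C. Prkag1 holds 0 matches and 17 CG pairs at 58.8% G and C. Of the 33469 windows of this length in the table, searched on both strands (the pattern is its own reverse complement), 65.5% hold CANNTG, 12.0% hold CAGCTG, and the median number of CG pairs is 5. A match describes the letters and is not a measured site.

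Total counts ran from 4604116 to 7813842 in BAT, 6506450 to 8381507 in SAT and 6470081 to 9707132 in VAT. A count of 3, taken as the floor, equals 0.309 to 0.652 CPM, the unit used here for a gene's count scaled by its library's total. The depots carried their own marker genes, with exceptions. Ucp1, the brown fat uncoupling protein, was at 113.6 to 9569 CPM in BAT and at most 1.38 CPM in SAT, and Adipoq was at 301.5 CPM or more in all libraries. A total of 8 libraries stand apart: BAT PCB 52 of female rat 24 (lowest Ucp1 of BAT), SAT sham of female rat 8 (621 otherwise expressed genes at 0), SAT PCB 52 of male rat 19 (a brown adipocyte list sum of 1735 CPM, but Ucp1 at 0), VAT sham of female rats 4 and 8 (brown fat genes with Ucp1 at 337.7 and 229.5 CPM, and in rat 8 also muscle genes), VAT of male rats 11 and 23 (seminal vesicle genes) and VAT PCB 52 of male rat 13. In the VAT library of rat 13, 243 of the 366 genes of chromosome 9 with a group median over 5 CPM are at 0; Prkag3, at 0 there, lies on that chromosome. Y-linked genes passed 10 CPM in 34 of the 35 libraries labelled male and 0 of the 35 labelled female; the exception is that same library.

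Levels below are CPM of each library's total and are compared only within a gene, since no transcript lengths were used. Differences are log2 differences with their standard error (SE) from edgeR's quasi-likelihood test on TMM-scaled counts. The p-values are Benjamini-Hochberg adjusted over all genes tested, and a gene is called under 0.05. For BAT against the other depots the TMM scale lies 0.18 (female BAT against VAT) to 0.39 (male BAT against VAT) above the CPM scale on the log2 axis, which matters for small differences.

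**Figure D1:**
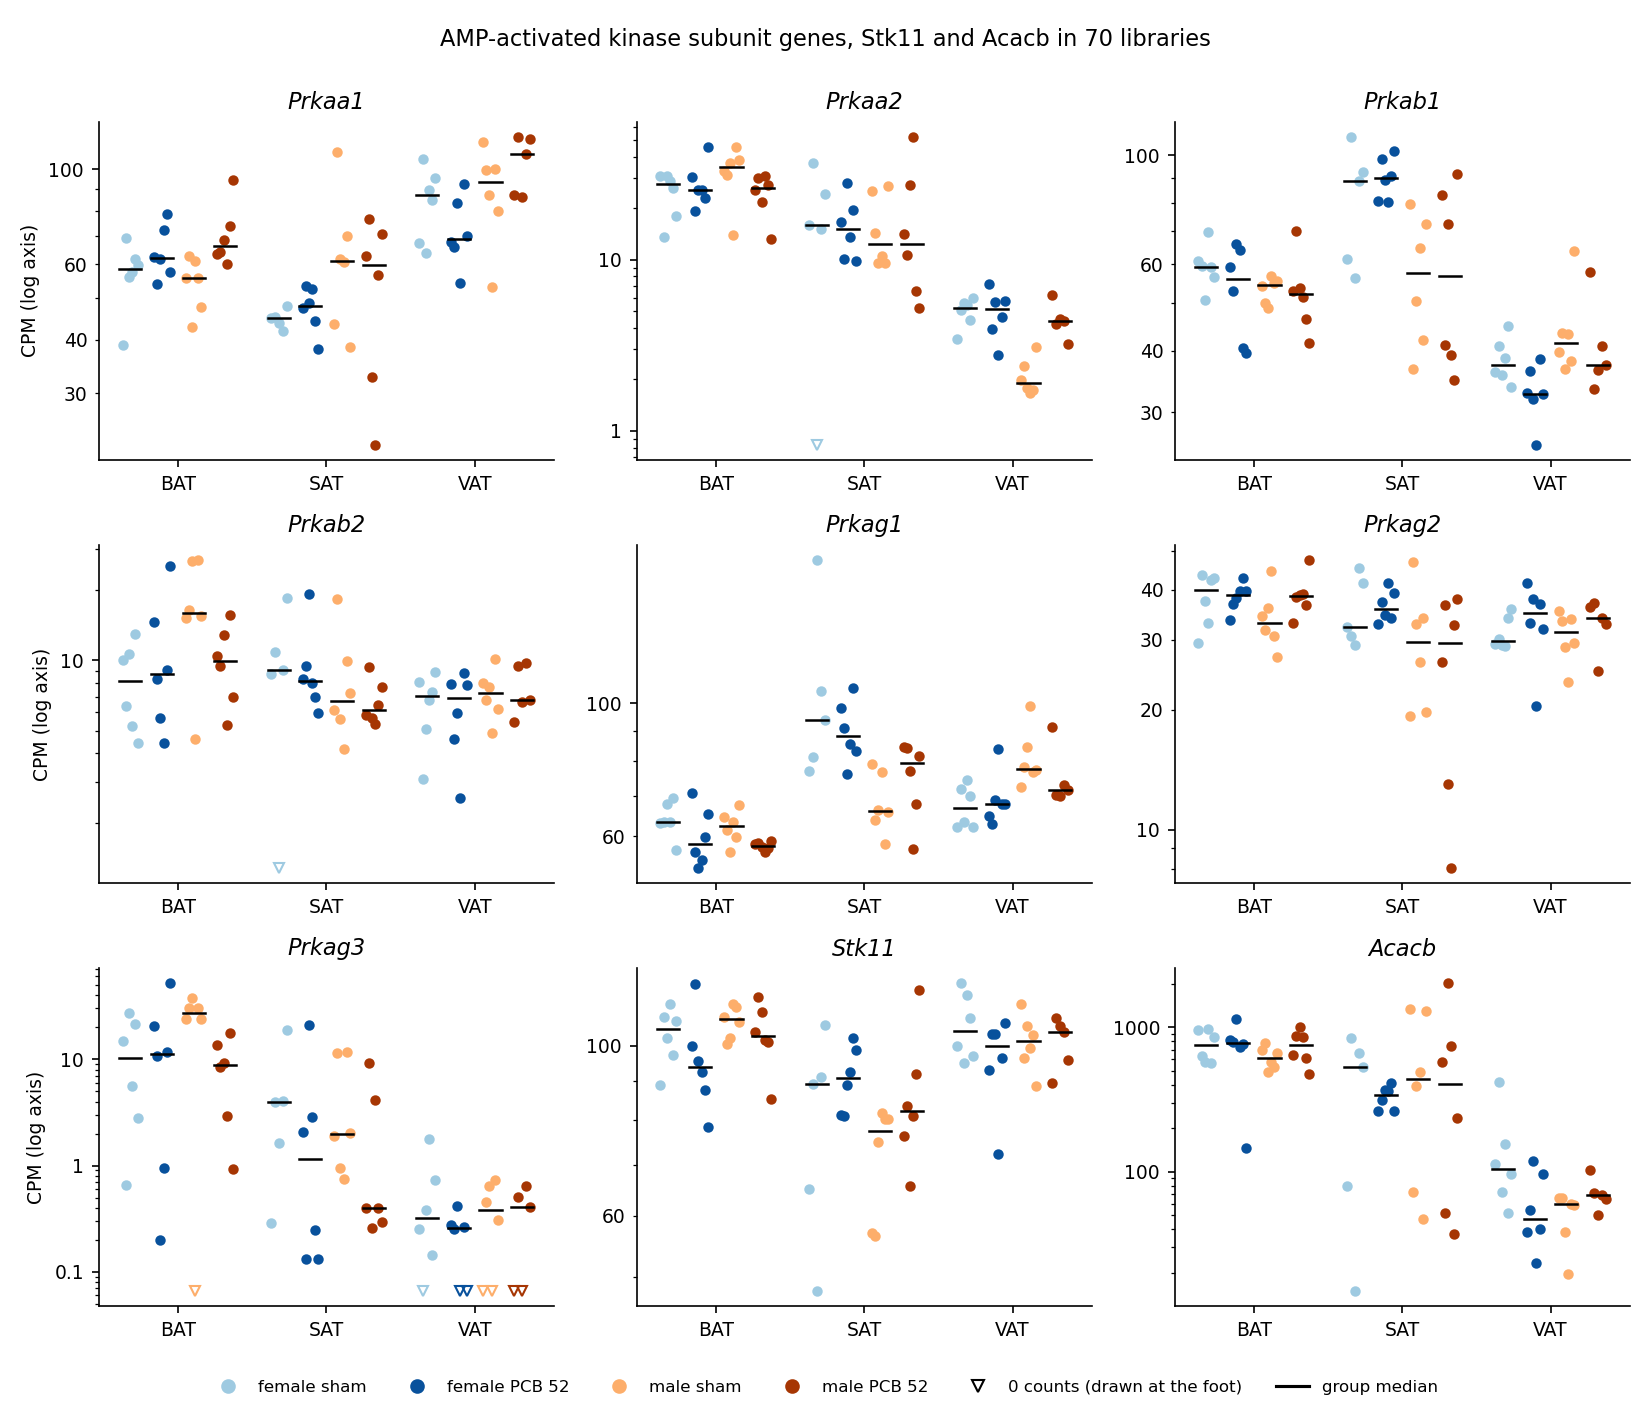
CPM (log axis) of the 9 genes in all 70 libraries by depot, with 1 point per library coloured by sex and treatment, group medians as black bars and libraries without counts as open triangles at the foot. Prkaa2, Prkag3 and Acacb step down from BAT to VAT, while the depot medians of Prkag1, Prkag2 and Stk11 lie closer together.

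Among the catalytic subunits, Prkaa2 was higher in BAT and in SAT than in VAT in sham rats of both sexes. Its level in male sham rats ran from 14.02 over a median of 34.8 to 45.5 CPM in BAT, from 9.53 over 12.4 to 27.2 CPM in SAT and from 1.66 over 1.90 to 3.09 CPM in VAT. In female sham rats it was 13.6, 27.6 and 31.0 CPM in BAT (lowest, median, highest) and 3.45, 5.26 and 5.98 CPM in VAT, and the 5 SAT libraries stood at 0 (rat 8), 15.2, 16.1, 24.2 and 36.6 CPM. Every BAT library thus lay above every VAT library in each sex, and in males every SAT library did as well. BAT exceeded VAT by 4.36 (SE 0.36, adjusted p = 2.14e-08) in males and by 2.49 (SE 0.58, adjusted p = 0.00422) in females. SAT exceeded VAT by 3.11 (SE 0.35, adjusted p = 1.8e-05) in males and by 1.67 (SE 0.58, adjusted p = 0.0297) in females, where 5 of 22 alternatives ended the call (adjusted p 3.24e-05 to 0.152), among them the block for the rat (1.39, adjusted p = 0.152). Between BAT and SAT, males differed by 1.25 (SE 0.31, adjusted p = 0.00235), and females by 0.82 (SE 0.57, adjusted p = 0.251). The median sum of a list of skeletal muscle genes in male sham rats was 29732 CPM in BAT, 1743 CPM in SAT and 56.3 CPM in VAT. In female sham rats it was 16413, 6221 and 53.1 CPM. Prkaa2 rose with these transcripts within BAT (below), and their part in the depot differences was not tested.

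Prkaa1, the other catalytic subunit, was lower in SAT than in VAT in female sham rats. The 5 female SAT libraries fell between 41.9 and 48.0 CPM, at 41.9, 43.7, 45.1, 45.4 and 48.0, against 63.8, 87.3 and 105.6 CPM (lowest, median, highest) in VAT and 38.9, 58.6 and 69.01 CPM in BAT. SAT and VAT did not overlap, and SAT was lower by a log2 difference of -0.89 (SE 0.21, adjusted p = 0.00323). In male sham rats the SAT libraries spread from 38.5 over 61.2 to 109.9 CPM and VAT from 53.1 over 93.5 to 115.7 CPM, with a difference of -0.33 (SE 0.20, adjusted p = 0.217). Without the SAT library of male rat 3 it was -0.53 and passed (adjusted p = 0.0367, with 0.0367 to 0.416 over 22 alternatives). BAT against VAT gave -0.40 in females and -0.33 in males (adjusted p = 0.157 and 0.175). The female value was -0.36 and passed without the SAT library of rat 8, which shares in the estimate of spread (adjusted p = 0.0385, with 0.0385 to 0.316 over 22 alternatives). Without the SAT library of female rat 8 the female difference of BAT from SAT rose from 0.49 to 0.78 and passed (adjusted p = 0.000426, with 0.000271 to 0.125 over 22 alternatives). The balance of the pair differed between depots. In male sham rats the log2 ratio of Prkaa2 to Prkaa1 counts had a median of -0.54 in BAT, -2.60 in SAT and -5.44 in VAT. Its ranges in BAT (-2.12 to -0.22) and VAT (-5.81 to -4.66) did not meet. In female sham rats the medians were -1.11, -1.46 and -4.13, with SAT spread from -9.34 to -0.31. Female BAT (-2.34 to -0.33) and VAT (-4.35 to -3.50) did not meet either. The ratio carries the transcripts' unequal lengths, so only its change between depots can be read, and that change was not tested.

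The beta subunits parted in the same comparisons. Prkab1 was lowest in VAT: female sham levels were 50.8, 59.3 and 69.7 CPM in BAT (lowest, median, highest), 56.3, 61.4, 88.6, 92.4 and 108.9 CPM in the 5 SAT libraries and 33.7, 37.5 and 44.9 CPM in VAT. All female BAT and SAT libraries lay above all VAT libraries, by 0.81 (SE 0.15, adjusted p = 0.000897) and 1.06 (SE 0.16, adjusted p = 5.67e-05). The male sham values were 49.0, 54.5 and 56.7 CPM in BAT, 36.7, 57.6 and 79.5 CPM in SAT and 36.7, 41.5 and 63.7 CPM in VAT. There BAT exceeded VAT by 0.67 (SE 0.19, adjusted p = 0.00743) and SAT exceeded VAT by 0.57 (SE 0.19, adjusted p = 0.0381), the latter lost in 7 of 22 alternatives (adjusted p 0.0113 to 0.108). Prkab2, the second beta subunit, was higher in BAT in male sham rats, at 4.61, 15.98 and 26.9 CPM against 4.15, 6.69 and 18.4 CPM in SAT and 4.87, 7.24 and 10.2 CPM in VAT. The groups overlapped, and the differences were 1.30 from SAT (SE 0.36, adjusted p = 0.00615) and 1.67 from VAT (SE 0.37, adjusted p = 0.00108). Skeletal muscle transcripts were also highest in male sham BAT, with a median sum of 29732 CPM against 1743 CPM in SAT and 56.3 CPM in VAT, and their part in these differences was not tested. In female sham rats Prkab2 ran from 4.44 over 8.20 to 12.9 CPM in BAT, and no depot difference passed (adjusted p = 0.814, 0.541 and 0.679).

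Prkag3, the muscle-type gamma subunit, had the widest range of the gamma genes. Its male sham levels were 0 (rat 7), 23.8, 23.9, 30.3, 30.6 and 38.0 CPM in BAT, 0.755 to 11.8 CPM in SAT with a median of 1.97, and 0 to 0.726 CPM in VAT with a median of 0.380. Female sham BAT ran from 0.654 over 10.2 to 27.4 CPM, and female sham VAT from 0 to 1.76 CPM. VAT thus lay at or near the floor. The gene passed the low-count filter of the depot fits only through BAT and SAT, where it is high, so its differences from VAT are given as a description with no test: 6.46 for male BAT, 4.61 for female BAT, 3.84 for male SAT and 3.22 for female SAT, sizes that depend on the added prior count. The medians of skeletal muscle transcripts lay in the same order. The sum of a skeletal muscle list (20 of its 22 genes are in the tables) in sham rats ran from 1226 to 59419 CPM in BAT, 53.8 to 16201 CPM in SAT and 40.7 to 79.1 CPM in VAT of males. In females it ran from 563.2 to 34623, 491.9 to 23970 and 43.1 to 1592 CPM. Their part in the depot differences was not tested. Male BAT exceeded male SAT by 2.63 (SE 0.81, adjusted p = 0.0112), and the female difference of 1.39 (SE 0.89) did not pass (adjusted p = 0.212). Without the SAT library of female rat 12 the female difference of BAT from SAT passed at 2.50 (adjusted p = 0.0386, with 0.0386 to 0.422 over 22 alternatives), and that of SAT from VAT was 2.13.

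Prkag1 and Prkag2, the widely expressed gamma subunits, had depot medians closer together. Over all libraries Prkag2 ran from 27.1 over 37.8 to 47.4 CPM in BAT, from 8.04 over 32.9 to 46.9 CPM in SAT and from 20.5 over 33.0 to 41.5 CPM in VAT. In sham rats alone the medians in BAT, SAT and VAT were 39.9, 32.3 and 29.7 CPM in females. In males they were 33.0, 29.6 and 31.4 CPM. On the TMM scale BAT exceeded VAT for Prkag2 by 0.46 (SE 0.16, adjusted p = 0.0448) in female sham rats. The male difference was 0.55 (SE 0.18, adjusted p = 0.0156). BAT also exceeded SAT in males by 0.44 (SE 0.18, adjusted p = 0.0415). For these calls the TMM scale lies 0.18, 0.39 and 0.23 above the CPM scale on the log2 axis, in that order. These calls were lost in 12, 3 and 19 of 22 alternatives in that order (adjusted p 0.00341 to 0.105, 0.00702 to 0.0544 and 0.00582 to 0.148), the female one among others under the block for the rat (0.45, adjusted p = 0.0667). Female BAT against SAT gave 0.26 for Prkag2 (SE 0.17, adjusted p = 0.215). Without the SAT library of female rat 8 it was 0.46 and passed (adjusted p = 0.00829). Prkag1 stood at 77.2, 81.3, 93.8, 104.8 and 173.1 CPM in female SAT sham, the highest in rat 8. Female sham BAT held 57.0 to 69.6 CPM and VAT 62.1 to 74.3 CPM. All SAT libraries lay above all of both other depots. SAT exceeded VAT by 0.84 (SE 0.31, adjusted p = 0.0396), and by 0.18 (adjusted p = 0.161) without rat 8. Of the 21 alternatives with an adjusted p (0.0196 to 0.161), 8 ended the call, the block for the rat among them (0.64, adjusted p = 0.119). SAT against BAT did not pass (BAT minus SAT -0.74, SE 0.31, adjusted p = 0.0593), and this difference was -0.04 without rat 8 (adjusted p = 0.742, with 0.0331 to 0.742 over 21 alternatives). Male BAT sham libraries (56.4 to 67.7 CPM) lay below male VAT (72.6 to 99.0 CPM) without overlap, but on the TMM scale the difference was -0.01 (SE 0.12, adjusted p = 0.965).

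Stk11, the LKB1 gene, was lowest in SAT. Male sham levels were 100.7, 108.4 and 113.6 CPM in BAT (lowest, median, highest), 56.4, 77.5 and 81.8 CPM in SAT and 88.7, 101.4 and 113.6 CPM in VAT, so that SAT did not overlap either depot. BAT exceeded SAT by 0.82 (SE 0.11, adjusted p = 9.68e-06) in males and by 0.60 (SE 0.15, adjusted p = 0.00271) in females, calls kept in 22 of 22 alternatives each. SAT was below VAT by -0.34 (SE 0.11, adjusted p = 0.0343) in males, a call lost in 14 of 22 alternatives (adjusted p 0.0161 to 0.0895). The female difference was -0.47 (SE 0.15, adjusted p = 0.0166). Female sham SAT ran from 47.9 CPM (rat 8) over 89.2 to 106.6 CPM. It overlapped BAT (88.8 to 113.4 CPM) and VAT (95.1 to 120.7 CPM). On the TMM scale male BAT also exceeded male VAT by 0.47 (SE 0.11, adjusted p = 0.00177), with overlapping CPM. That scale lies 0.39 above CPM there and 0.18 above it in females. The female difference of BAT from VAT, 0.13 (SE 0.14), did not pass (adjusted p = 0.54).

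Acacb, the target gene, was higher in BAT than in VAT in both sexes. Female sham levels ran from 567.1 over 749.3 to 973.8 CPM in BAT and from 52.1 over 104.5 to 419.3 CPM in VAT, and male sham levels from 493.7 over 617.5 to 783.4 CPM in BAT and from 19.6 over 59.5 to 66.3 CPM in VAT. No VAT library reached a BAT library in either sex. The difference was 2.47 (SE 0.68, adjusted p = 0.0128) in females and 4.00 (SE 0.67, adjusted p = 9.5e-05) in males, and each was called in 22 of 22 alternatives. In SAT the gene was scattered: male sham libraries stood at 47.1, 72.9, 393.2, 491.1, 1300.3 and 1346 CPM, and female ones at 15.01, 79.2, 532.5, 666.2 and 837.6 CPM. The lowest male SAT levels, 47.1 and 72.9 CPM, came with the lowest sums of a list of mammary epithelium genes (below). The lower of these levels lay within the male VAT range and the other just above it. The median sum of that list was 78551 CPM in male sham SAT and 59.0 CPM in male sham VAT. Male SAT exceeded male VAT by 3.80 (SE 0.67, adjusted p = 0.00117), and the part of mammary transcripts in that difference was not tested. The female difference of 1.25 (SE 0.68) did not pass (adjusted p = 0.154), but did without the SAT library of rat 8 (1.55, adjusted p = 0.0332) or the VAT library of rat 4 (1.94, adjusted p = 0.0289; 0.0018 to 0.363 over 22 alternatives).

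**Figure D2:**
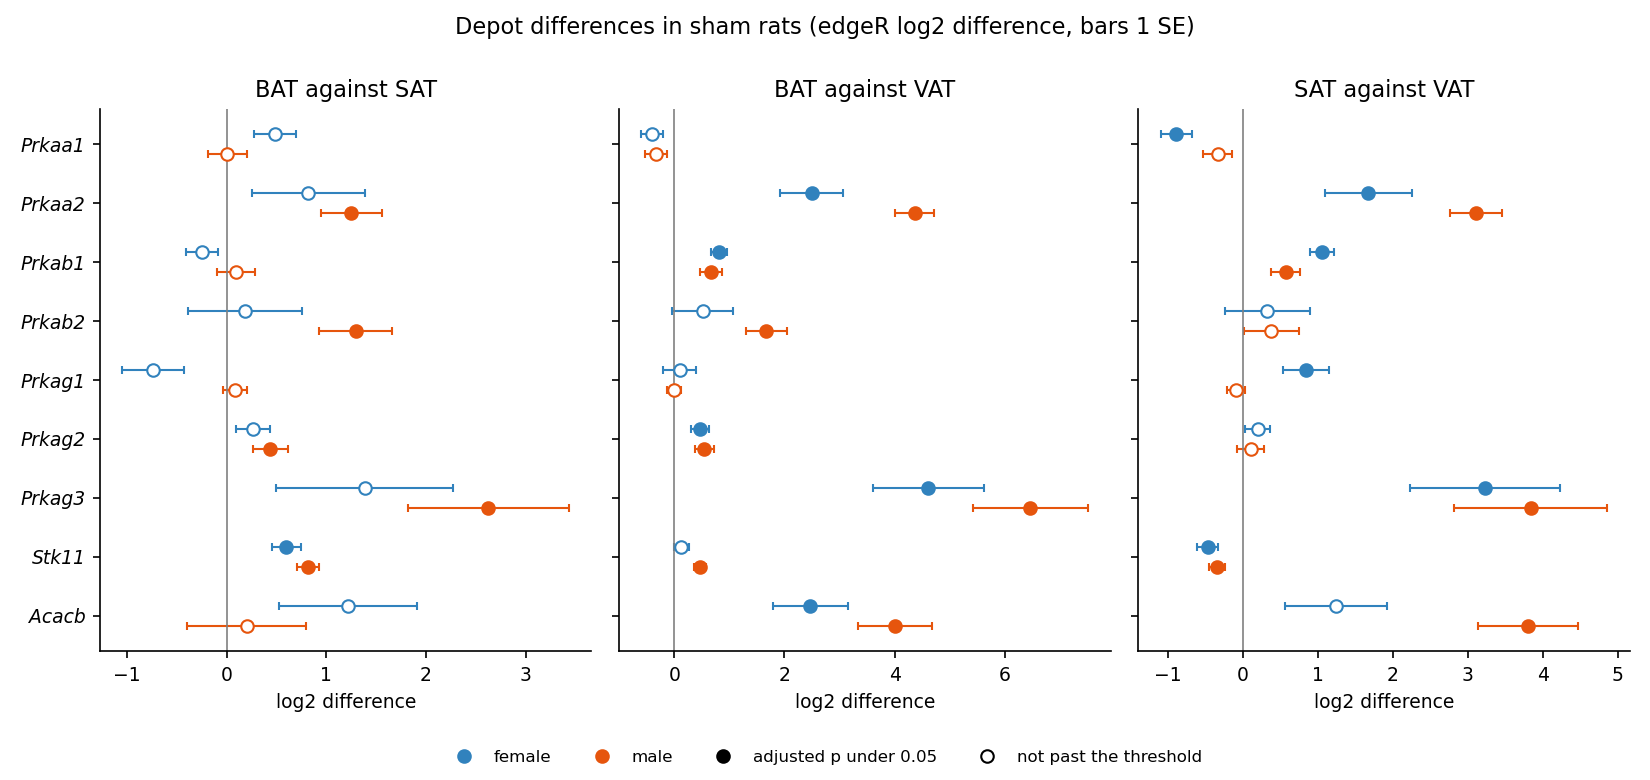
Log2 differences between depots in sham rats (horizontal axis, edgeR, bars 1 SE) for the 9 genes, females in blue and males in orange, filled where the adjusted p is under 0.05. BAT minus VAT is positive and filled for Prkaa2, Prkab1, Prkag2 and Acacb in both sexes; the filled points of Prkag3 against VAT rest on VAT levels at the floor and are not read as tests.

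The counts of members called are given beside the share of all genes. In female sham rats 1 of 9 genes was called between BAT and SAT, where 47.6% of all genes tested were, and in males 5 of 9, where 55.3% were. Prkag3 is left out of the comparisons with VAT. Between BAT and VAT 4 of 8 were called in females (25.5% of all genes) and 6 of 8 in males (49.8%). For SAT against VAT the counts were 5 of 8 in females (39.7%) and 4 of 8 in males (23%). The median difference over these genes was 0.49, 0.44, 0.49, 0.61, 0.58 and 0.24 in that order, beside -0.14, -0.04, -0.07, -0.03, 0.10 and -0.01 over all genes tested. Groups did not overlap in CPM for 1 gene in females and 1 in males between BAT and SAT (27.8% and 33.3% of all genes), 3 and 3 between BAT and VAT (24.6% and 36.9%) and 3 and 2 between SAT and VAT (23.3% and 8.90%). Each depot and sex has a table of its own, so depot and table cannot be told apart.

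Within BAT, 3 subunit genes followed the level of skeletal muscle transcripts from library to library. Prkag3 was at 0 CPM in male sham rat 7, 0.201 and 0.958 CPM in female PCB 52 rats 18 and 20, 0.654 CPM in female sham rat 4 and 0.930 CPM in male PCB 52 rat 23. These 5 libraries had the lowest sums of the muscle list in BAT, at 1226, 1023, 1023, 563.2 and 750.4 CPM over the 20 of 22 list genes in the tables. The highest Prkag3 level, 51.7 CPM in female PCB 52 rat 24, came with the highest sum, 70326 CPM. The summed list ran from 563.2 to 34623 CPM in female sham, 1023 to 70326 CPM in female PCB 52, 1226 to 59419 CPM in male sham and 750.4 to 20860 CPM in male PCB 52, and none of its genes was at 0 throughout a BAT group. Ckm, the muscle creatine kinase, spanned 19.95 to 7263 CPM in BAT.

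With the 4 groups as a factor, the log2 level of Prkag3 in BAT rose by 0.90 (SE 0.05, adjusted p = 4.91e-12) for each unit of the list's mean log2 CPM. Prkab2 rose by 0.25 (SE 0.04, adjusted p = 4.05e-05) and Prkaa2 by 0.15 (SE 0.03, adjusted p = 0.00366). These 3 of 9 compare with 4.32% of all genes tested. Females alone gave 0.86 for Prkag3, 0.23 for Prkab2 and 0.10 for Prkaa2, and the last did not pass (adjusted p = 0.369, with 0.00249 to 0.369 over 4 alternatives). Males alone gave 0.95, 0.31 and 0.24. Prkaa1 and Prkag2, by contrast, had slopes of -0.05 and -0.04 (adjusted p = 0.16 and 0.196), and Prkag1 one of 0.02 (adjusted p = 0.606). In SAT only Prkag3 was called (0.66, SE 0.06, adjusted p = 2.07e-07), 1 of 9 beside 1.51% of all genes; without the SAT libraries that stand apart Prkab2 joined it at 0.15 (adjusted p = 0.00251, with 0.00251 to 0.997 over 5 alternatives). In VAT, where Prkag3 was too low to be tested, 0 of 8 were called, beside 0.129% of all genes.

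**Figure D3:**
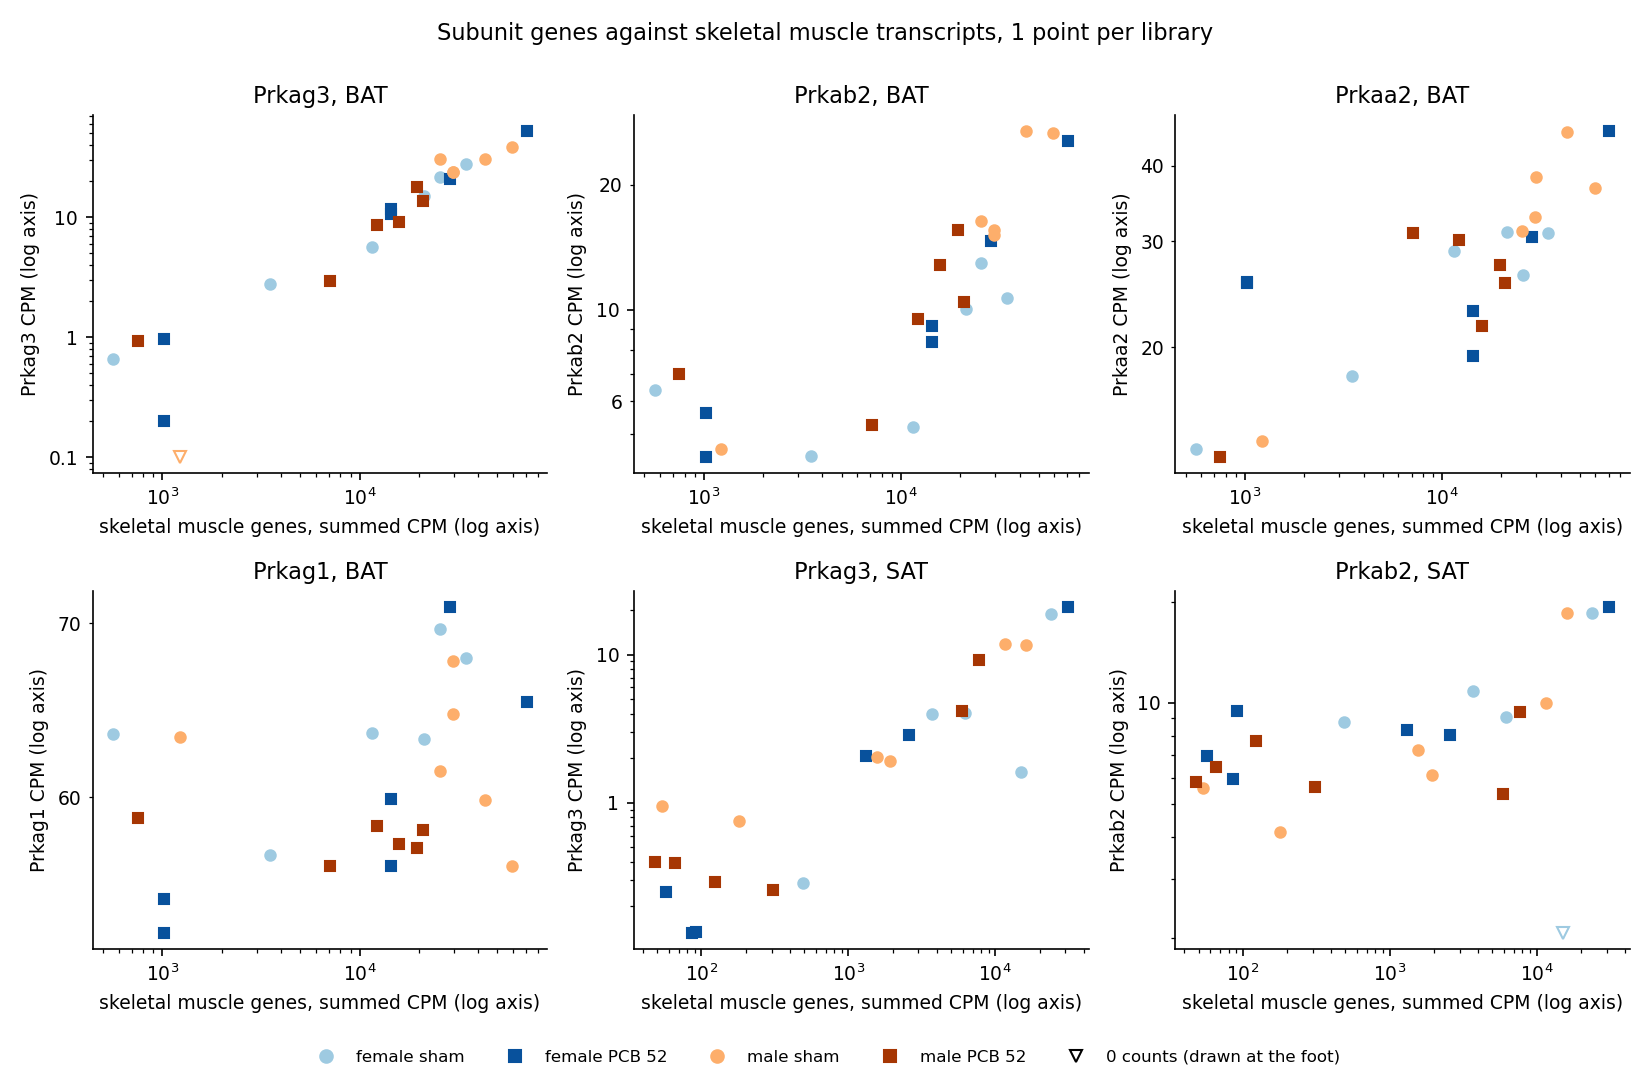
CPM of subunit genes (vertical, log axis) against the summed CPM of the skeletal muscle list (horizontal, log axis) in BAT and SAT, 1 point per library, circles for sham and squares for PCB 52. Prkag3 lies between 0 and 0.958 CPM in the 5 BAT libraries with the lowest sums and reaches 51.7 CPM at the highest, while Prkag1 stays between 53.2 and 71.0 CPM.

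Acacb in SAT moved with 2 other sets of transcripts. The mammary epithelium list (12 of 12 genes in the tables, milk protein, keratin and cell adhesion genes) summed to 11.2 to 238122 CPM in male SAT sham, 15.3 to 246303 CPM in male SAT PCB 52, 6364 to 30772 CPM in female SAT sham and 4357 to 40350 CPM in female SAT PCB 52. Male sham rats 1 and 11, with 238122 and 202040 CPM of that list, had 1346 and 1300.3 CPM of Acacb. Rats 7 and 5, with 84575 and 72526 CPM, had 491.1 and 393.2 CPM. Rats 3 and 9, with 1742 and 11.2 CPM, had 72.9 and 47.1 CPM. Male PCB 52 rats kept the same order apart from rat 19: rat 17 had 2011 CPM of Acacb with 246303 CPM of the list, rat 13 had 572.0 with 75192, rat 23 had 236.8 with 23954, rat 15 had 51.5 with 924.0 and rat 21 had 37.0 with 15.3. Rat 19, 1 of the libraries that stand apart, had 743.2 CPM of Acacb with 5120 CPM.

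Over all SAT libraries, with the 4 groups as a factor, Acacb rose by 0.45 (SE 0.10, adjusted p = 0.00306) for each unit of the mammary list's mean log2 CPM, a comparison added after the data were seen. Prkab1 rose by 0.11 (SE 0.02, adjusted p = 0.00558), which makes 2 of 9 genes beside 11.5% of all genes. In females alone the slope of Prkab1 was 0.02 and did not pass (adjusted p = 0.996, with 0.00154 to 0.996 over 5 alternatives). Without the 2 libraries farthest from the list's median the slope of Acacb was 0.55 and did not pass (adjusted p = 0.0801, with 0.000173 to 0.998 over 5 alternatives). Males alone gave 0.48 for Acacb and females alone -0.02, and the difference between the sexes was not tested. Female SAT libraries showed no such order: sham rat 2, with 21704 CPM of the list, had 79.2 CPM of Acacb, and sham rat 12, with 6364 CPM, had 532.5 CPM. Against the mature adipocyte list, 4 of 9 genes were called in SAT, beside 26.2% of all genes: Acacb fell by 1.22 and Prkaa2 by 0.67 per unit, and Prkag2 rose by 0.35 and Prkaa1 by 0.33 (adjusted p = 0.0163, 0.042, 0.00411 and 0.00349). None of these 4 passed in females alone, and leaving out the 2 libraries farthest from the median ended 3 of the calls, all but that of Prkaa1. In male SAT the libraries of rats 1, 11, 17 and 19 were high in Acacb and Prkaa2. They were also lowest in Prkag2 (8.04 to 19.8 CPM) and, within each group, in Prkaa1. Plin1, of the adipocyte list, was at 239.9, 165.9, 386.7 and 178.6 CPM there. Of these rats all but 19 had the most mammary transcripts. Rats 9 and 21, with the least in their groups, had 2443 and 2544 CPM of Plin1. In males the slopes on the 2 lists share these libraries and were not told apart.

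The same adipocyte list called fewer members in the other depots. In BAT 1 of 9 genes was called, Prkaa2 with a slope of -0.95 (SE 0.28, adjusted p = 0.0366), beside 9.24% of all genes. In VAT 1 of 8 was called, Stk11 with 0.47 (SE 0.16, adjusted p = 0.0493), beside 15.3% of all genes. The call for Prkaa2 was lost in 3 of 4 alternatives (adjusted p 0.0419 to 0.346) and that for Stk11 in 3 of 4 (0.0439 to 0.626).

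**Figure D4:**
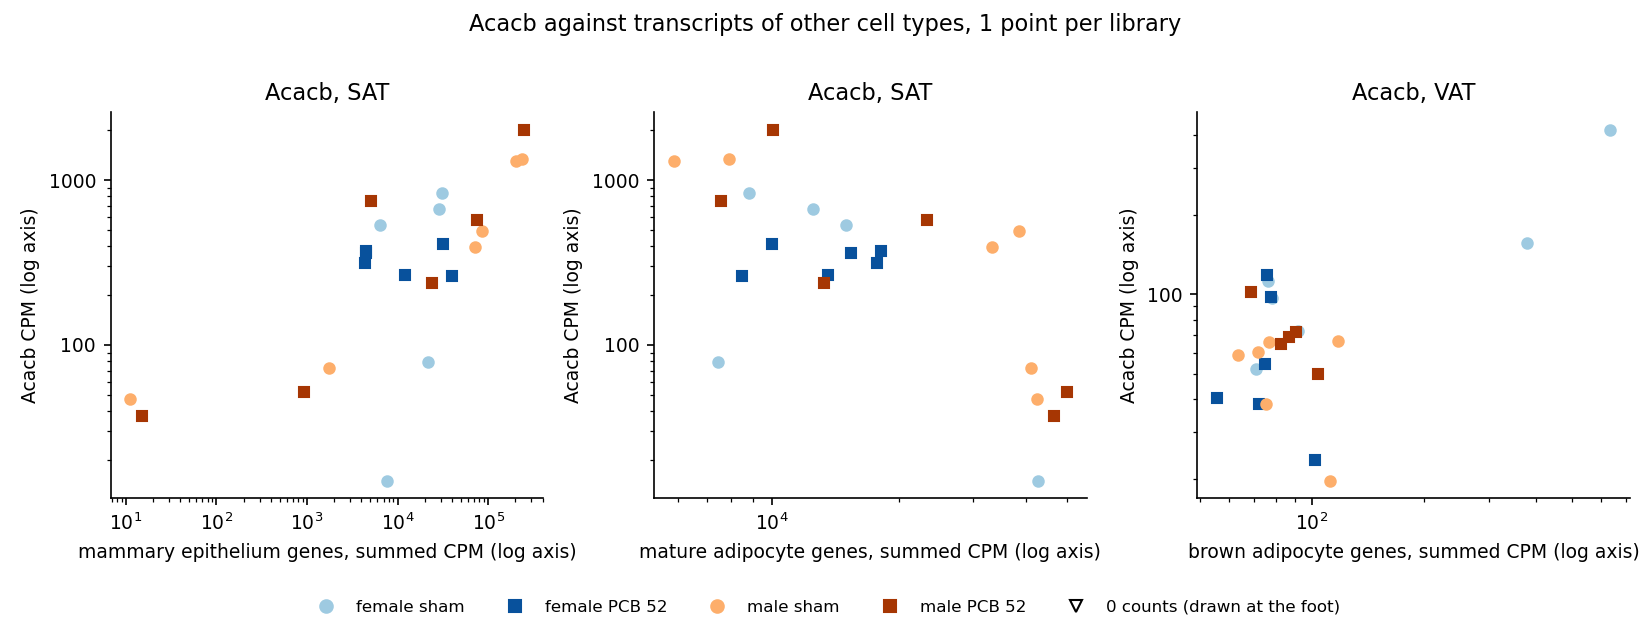
Acacb CPM (vertical, log axis) against the summed CPM of mammary epithelium and mature adipocyte genes in SAT and of brown adipocyte genes in VAT (horizontal, log axes), 1 point per library, circles for sham and squares for PCB 52. In male SAT Acacb climbs from 37.0 to 2011 CPM along the mammary list, and in VAT the highest point, 419.3 CPM, belongs to the library with the most brown fat transcripts.

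Between the sexes, 2 genes differed in the VAT of sham rats, both lower in males. Prkaa2 was at 1.66, 1.74, 1.79, 2.00, 2.41 and 3.09 CPM in males and at 3.45, 4.43, 5.10, 5.42, 5.59 and 5.98 CPM in females. Every male library lay below every female one, and the difference was -1.33 (SE 0.22, adjusted p = 0.00241), called in 16 of 16 alternatives (adjusted p 6.53e-06 to 0.0114). Acacb differed by -1.69 (SE 0.48, adjusted p = 0.0368), with overlapping groups. Female sham rats 4 and 8, at 419.3 and 156.3 CPM of Acacb, also had the highest sums of the brown adipocyte list in female VAT, 632.9 and 378.1 CPM over 8 of 10 genes, against 55.5 to 101.9 CPM in the other female VAT libraries. Their part in the result was not tested beyond leaving them out: without rat 4 the difference was -1.02, and without the libraries that stand apart -0.83 (adjusted p = 0.0684 and 0.17, with 0.00256 to 0.17 over 16 alternatives). The call was lost in 10 of the 16, also without female rat 2 or 8, without male rat 3, 5, 7, 9 or 11, or with no filter. The VAT library of female rat 8 also held muscle transcripts, with a list sum of 1592 CPM against at most 79.1 CPM in every other VAT library.

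These 2 of 8 genes in VAT compare with 11.5% of all genes tested. In BAT 0 of 9 were called (0.0652% of all genes) and in SAT 0 of 9 (1.09%). DESeq2 called no member in BAT and SAT either, and at an unadjusted p under 0.05 there was 1 of 9 in BAT, 0 of 9 in SAT and 2 of 8 in VAT, beside 6.78%, 19.6% and 27.7% of all genes. The BAT gene was Prkab2, higher in males by 1.14 (SE 0.38, adjusted p = 0.484), with 4.61 to 26.9 CPM against 4.44 to 12.9 CPM. Sexes did not overlap in CPM for 1 gene in VAT, 0 in BAT and 0 in SAT, where 7.02%, 0.410% and 7.04% of all genes did not. Sex, table and age at the start cannot be told apart.

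PCB 52 against sham gave no call for any of the 9 genes in any depot or sex, and none for any other gene: the share called was 0% in all 6 comparisons. DESeq2 called 14 genes in male BAT, 37 in female VAT and 2 in male VAT, none of them among the 9. Unadjusted p-values under 0.05 were found in BAT for 3 of 9 members in males (9.86% of all genes) and 0 of 9 in females (3.63%). In SAT there were 0 of 9 in each sex (1.44% of all genes in males, 5.12% in females). In VAT there was 1 of 8 in each sex (6.30% of all genes in males, 9.57% in females). Prkag3 was too low in VAT to be tested. No alternative brought a member's adjusted p under 0.05 here, the lowest being 0.138.

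The widest separation was that of Prkaa2 in male VAT. Sham rats had 1.66, 1.74, 1.79, 2.00, 2.41 and 3.09 CPM, and PCB 52 rats 3.24, 4.22, 4.37, 4.50 and 6.24 CPM, the last in rat 13, whose library stands apart. No PCB 52 library overlapped the sham range, which holds for 0.493% of all genes tested there, and for 0 of the other 7 genes. The difference was 1.07 (SE 0.22, unadjusted p = 0.000475, adjusted p = 0.747). It lay between 0.92 and 1.18 over 17 alternatives (adjusted p 0.138 to 0.97), with 1.18 where the libraries that stand apart were left out. Female VAT had 3.45 to 5.98 CPM in sham and 2.78 to 7.25 CPM in PCB 52 rats, a difference of 0.04 (SE 0.22, adjusted p = 0.965). The test of the difference between the sexes gave 1.02 (SE 0.31, unadjusted p = 0.00306, adjusted p = 0.405).

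Acacb in female VAT ran the other way, at 52.1, 72.8, 96.6, 112.5, 156.3 and 419.3 CPM in sham and 23.5, 38.2, 40.5, 54.6, 97.4 and 118.5 CPM in PCB 52 rats. The groups overlapped, and the difference was -1.29 (SE 0.51, unadjusted p = 0.025, adjusted p = 0.504). It was -0.61 without sham rat 4 and -0.39 without sham rats 4 and 8, the libraries with brown fat and, in rat 8, muscle transcripts (adjusted p = 0.632 and 0.817, with 0.359 to 0.817 over 18 alternatives). In male VAT the difference was 0.45 (SE 0.27, adjusted p = 0.747), and the contrast of the sexes 1.74 (SE 0.65, unadjusted p = 0.0147, adjusted p = 0.41).

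In male BAT, Prkaa1 ran from 42.9 over 55.8 to 62.6 CPM in sham and from 60.0 over 66.3 to 94.5 CPM in PCB 52 rats, a difference of 0.31 (SE 0.10, unadjusted p = 0.00996, adjusted p = 0.441). Prkag1 ran from 56.4 over 62.4 to 67.7 CPM in sham, and the 6 PCB 52 libraries stood between 56.4 and 58.9 CPM, a difference of -0.17 (SE 0.07, adjusted p = 0.464). Prkab2 had 4.61, 15.1, 15.5, 16.4, 26.8 and 26.9 CPM in sham and 5.26, 6.97, 9.51, 10.5, 12.8 and 15.6 CPM in PCB 52 rats, a difference of -0.87 (SE 0.36, adjusted p = 0.469). All 3 pairs of groups overlapped. The sum of the skeletal muscle list had a median of 29732 CPM in sham and 14031 CPM in PCB 52 rats. With the list's level as a covariate, the difference of Prkab2 was -0.37 in place of -0.87. That of Prkag3 was -0.25 in place of -1.53 (SE 0.73, adjusted p = 0.512 without it). Beyond this covariate, the part of muscle transcripts in these differences was not tested.

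Groups overlapped for all members in the other 5 comparisons of PCB 52 with sham, where few genes of any kind were free of overlap: 0.870% of all genes in males and 0.187% in females for BAT, 0.0524% and 0.271% for SAT, and 0.467% for VAT of females. The scatter in SAT limits what could be seen: the SE was 1.05 for Acacb in males and 1.23 for Prkag3 in females. Prkag1 in female SAT gave -0.69 (SE 0.38, adjusted p = 0.768) with and -0.02 without sham rat 8. The tests of whether the effect of PCB 52 differs between sexes or among depots called 0 genes, members or others, in all 5 fits (0% of all genes). Without adjustment, p was under 0.05 in the sex interaction for 2 of 8 members in VAT (Prkaa2 and Acacb, above; 10.7% of all genes), 0 of 9 in SAT (6.51%) and 1 of 9 in BAT (2.41%), Prkab2 with -1.31 (SE 0.56, unadjusted p = 0.0287, adjusted p = 1.00).

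**Figure D5:**
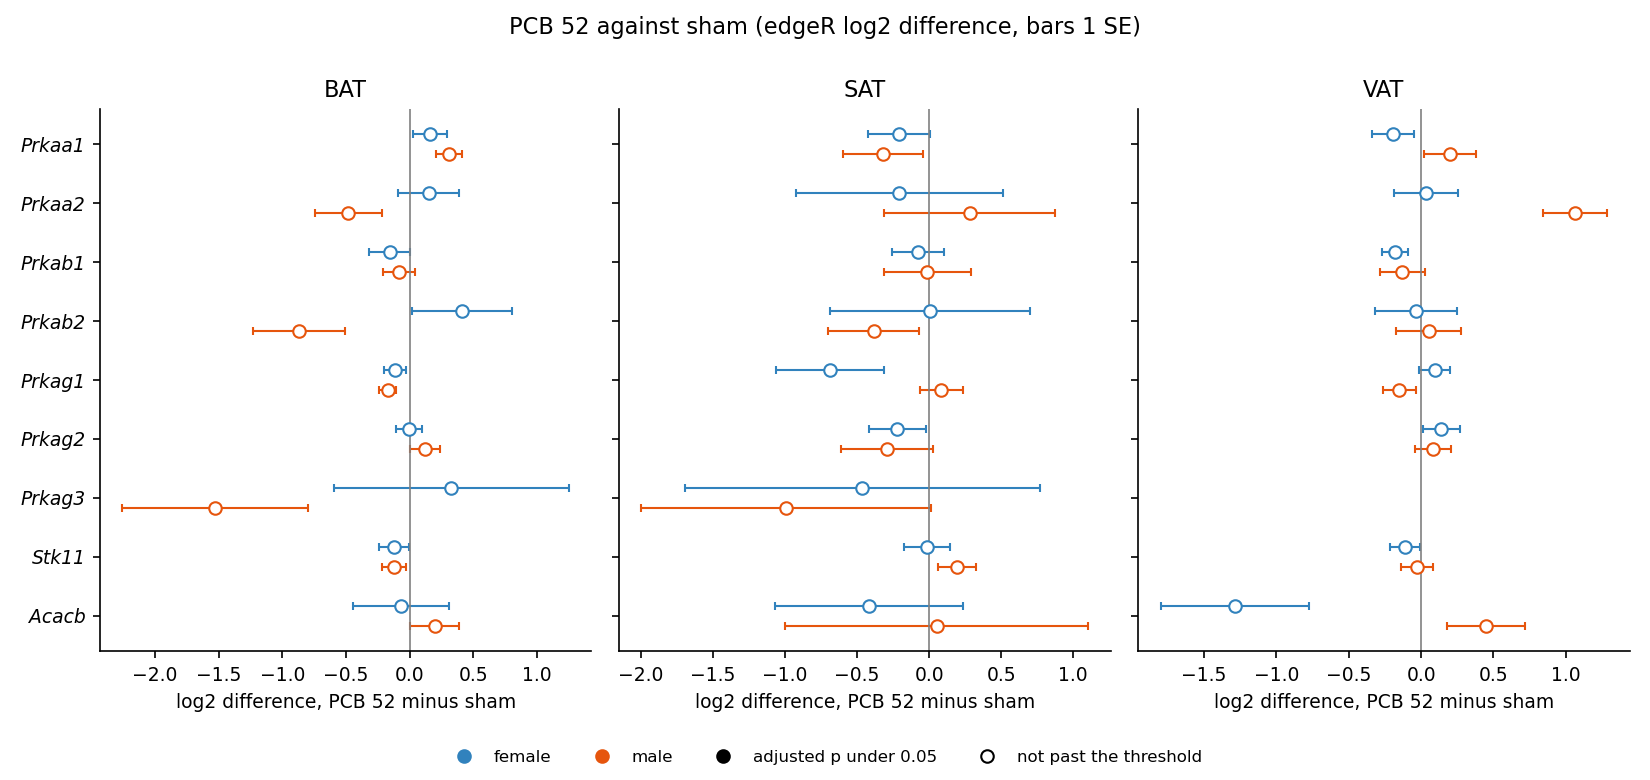
Log2 differences of PCB 52 from sham (horizontal axis, edgeR, bars 1 SE) for the 9 genes in BAT, SAT and VAT, females in blue and males in orange, with Prkag3 not tested in VAT. All points are open because none passed, and Prkaa2 in male VAT (1.07) stands farthest from 0 relative to its SE.

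The wider pathway was read from 5 lists with 60 genes, of which 55 were in the tables: upstream kinases and scaffolds, targets in lipid metabolism, targets in glucose metabolism, targets in growth, autophagy and mitochondria, and AMPK-related kinases. None of the 54 or 55 tested passed between PCB 52 and sham in any depot or sex. Without adjustment, p was under 0.05 for 4 genes of the lists in males and 1 in females for BAT (9.86% and 3.63% of all genes), 3 and 0 for SAT (1.44% and 5.12%), and 2 and 10 for VAT (6.30% and 9.57%). Between depots many did pass. BAT was higher than SAT for 25 genes and lower for 7 in females (47.6% of all genes called), and higher for 23 and lower for 7 in males (55.3%). Against VAT, BAT was higher for 10 and lower for 5 in females (25.5%), and higher for 21 and lower for 7 in males (49.8%). SAT was higher than VAT for 9 and lower for 22 in females (39.7%), and higher for 4 and lower for 3 in males (23%). In male against female sham VAT, 3 were higher and 9 lower (11.5% of all genes called); in BAT and SAT none passed (0.0652% and 1.09%).

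Of the pathway genes called in both sexes, those with the smallest p in each direction were as follows. Ppargc1a, the mitochondrial coactivator, was higher in BAT than in SAT by 7.73 in females and 6.67 in males, and higher than in VAT by 4.99 and 6.84. Gys2, a glycogen synthase, was higher in BAT than in SAT by 5.30 and 4.84. Cpt1b, the carnitine transferase that the product of Acacb inhibits, was higher in BAT than in VAT by 4.48 and 4.95. The sister gene Cpt1a was lower in BAT than in SAT, by -2.11 and -2.59, and higher in SAT than in VAT by 1.36 and 1.27.

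Kinase genes were among those lower in BAT in both sexes. Camkk1, which encodes a calcium-dependent upstream kinase, differed from SAT by -0.89 and -0.90. The AMPK-related kinases Nuak1 and Brsk1 differed from VAT by -1.23 and -1.24 and by -1.01 and -1.14. Sesn3, a sestrin, was higher in SAT than in VAT by 0.92 and 0.89. Mlycd, which breaks down the product of Acacb, was lower in SAT than in VAT by -1.02 and -0.56, and Pnpla2, the fat cell triglyceride lipase, by -3.25 and -1.10. Adjusted p-values for these ran from 3.84e-10 to 0.0434.

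Last, each gene was set beside all others among the 12602 genes, members included, that passed a low-count filter. The measure was the Pearson correlation of log2 CPM over the 70 libraries after the group means were taken off. The libraries share depth and tissue makeup, so these values are descriptions. Prkag3 was most like Tnnt3 (0.94, itself on the muscle list), Cacng1 (0.94) and Eef1a2 (0.94), the first a fast muscle troponin and the second a muscle calcium channel subunit, and the values were 0.95, 0.95 and 0.94 over the 62 libraries that do not stand apart. Prkab2 was nearest to Pkia (0.89), Fhl3 (0.88) and Clip1 (0.87), at 0.81, 0.74 and 0.77 over the 62. For Acacb the nearest were Lingo4 (0.88), Arhgef37 (0.88) and Capn15 (0.87), at 0.92, 0.84 and 0.90.

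Prkaa1 and Prkag2 resembled each other (0.77, and 0.71 over the 62 libraries) and shared Lnpep, an aminopeptidase gene of insulin-responsive vesicles, as the nearest gene (0.81 for each). Prkab1 was nearest to Nceh1 (0.81), a cholesterol ester hydrolase gene, and Stk11 to Ring1 (0.72). The highest values for Prkaa2 (Nipsnap2, 0.91) and Prkag1 (Anapc11, 0.90) fell to 0.71 and 0.72 over the 62 libraries. Among the members themselves, Prkaa2 and Prkab2 gave 0.68, Prkaa2 and Prkaa1 -0.55, and Prkab2 and Prkag1 -0.65. Acacb gave 0.61 with Prkab1 and 0.58 with Prkaa2, and Prkaa2 and Prkag2 gave -0.56. SAT sham of female rat 8 held Prkaa2 and Prkab2 at 0 and the highest Prkag1 level, 173.1 CPM. Values over the 62 libraries were not computed for these pairs of members.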

How the data were processed

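The authors deposited gene counts in 6 tables, split by sex and depot, of 15319 genes each. Reads were handled with FastQC and HISAT2 on build rn6, per the submitters' processing notes. Which program counted them, with what versions and strand setting, is not given in the sources used here. Samples whose RNA integrity fell below 8 were dropped, and poly(A) capture or rRNA removal was used without saying which, per the labels' protocols. The female VAT table was entered as estimated counts as deposited, because 5 lines below its genes hold spreadsheet summaries; those lines were dropped, and every gene line is whole. NCBI gene numbers were paired with symbols through a RefSeq table (15230 matched, 89 did not).

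Groups follow the labels. Tests used edgeR 4.0.16 in R 4.3.3 (TMM, default filter on low counts, robust quasi-likelihood F test, Benjamini-Hochberg adjustment over all genes). PCB 52 was compared with sham in each sex and depot, depots and sexes in sham rats, and slopes were fitted on the mean log2 CPM (prior count 2) of a marker list with groups as a factor. Alternatives were DESeq2 1.42.0, its size factors, limma 3.58.1 voom, no filter, each library left out, the libraries that stand apart left out, a marker list as covariate and the rat's number as a block. Libraries of equal number were taken to share a rat; deviations from group means had a median r of 0.0594 over 68 pairs of equal number and -0.0203 over 340 others. The main fit of each comparison was checked on simulated data, and the alternatives were not. The 9 members are described in every comparison; pathway genes are named by the 2 smallest p per direction passing in both sexes, and like genes by the 3 highest r. The members and lists were chosen with earlier results of these data known.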

Additional observations from a re-analysis of the deposited data

Results flagged for a closer look

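Within groups of 5 or 6 libraries, 10 values of the 108 groups tested stood apart from the rest by a gap too large for their group's range (Dixon's test); chance gives about 1 in 20. The values are CPM, each with the next library of its group.

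Among the gamma subunits, Prkag3 was at 0 in BAT sham of male rat 7 (next 23.8), at 18.9 in SAT sham of female rat 12 (next 4.06) and at 20.8 in SAT PCB 52 of female rat 18 (next 2.85). Prkag1 was at 173.1 in SAT sham of female rat 8 (next 104.8), at 83.8 in VAT PCB 52 of female rat 20 (next 68.9) and at 91.4 in VAT PCB 52 of male rat 13 (next 73.1). Of the beta subunits, Prkab2 was at 19.2 in SAT PCB 52 of female rat 18 (next 9.48), and Prkab1 at 63.7 in VAT sham of male rat 11 (next 43.4). Acacb was at 2011 in SAT PCB 52 of male rat 17 (next 743.2) and at 419.3 in VAT sham of female rat 4 (next 156.3).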

How the results depend on the processing

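DESeq2 called 14 genes for PCB 52 in male BAT, 37 in female VAT and 2 in male VAT, where edgeR called 0, and 66 and 925 between the sexes in BAT and SAT, where edgeR called 7 and 127. Without the libraries that stand apart, 5240 genes were called between BAT and VAT in females (3011 with them), 677 between the sexes in VAT (1291), 5560 on the adipocyte list in SAT (3184) and 3762 on the mammary list (1398). Slopes on the muscle list called 306 (females alone) and 303 (males alone) genes in BAT (477 in all), 104 and 88 in SAT (183), and in VAT 39 with no filter, 0 without the 2 farthest libraries and 0 in males alone (15). On the adipocyte list they called 218 without the 2 farthest libraries, 0 in females alone and 2166 in males alone for BAT (1019), 1120 and 8 (without the 2 farthest, females alone) for SAT (3184), and 90, 1157 and 858 for VAT (1780). On the mammary list they called 692 without the 2 farthest and 2 in females alone (1398); there the slope of Acacb turned from 0.45 to -0.017. With one library left out, the counts ran from 2307 (without BAT sham 8) to 5524 (without SAT sham 8) for female BAT against VAT, from 0 to 1 for PCB 52 in male BAT (1 without PCB 52 rat 19), from 0 to 1 for the depot interaction in females (1 without SAT sham 12 or VAT sham 2), from 0 to 3 for the sex interaction in VAT (3 without male sham 1), from 15 (without male sham 5) to 563 (without female sham 8) for sex in SAT, and from 844 (without male sham 5) to 1633 (without male sham 1) for sex in VAT. For sex in SAT the count was 29 or 80 without female sham 6 or 10, and 41, 36 or 43 without male sham 3, 7 or 9; for sex in VAT it was 850 without female sham 8. The cause was not tested. The replicate block (pairing libraries by the rat's number) ended 4 calls of members, all in females. They were Prkag2 for BAT against VAT (0.45), and Prkag1 (0.64), Prkag3 (2.65) and Prkaa2 (1.39) for SAT against VAT. That of Prkag3 is not read as a test, because its VAT levels lay at or near the floor. The block changed no other call of a member. Apart from single libraries left out, alternatives gave members the same call and direction in 895 values. The call was lost in 28 and gained in 11. In 64 the direction changed with no call in either fit, or a called value got no adjusted p. In 1 a called value changed direction, that of Acacb on the mammary list in females alone. With single libraries left out, 2879 values kept call and direction, 68 lost the call and 10 gained it. Another 135 changed direction with no call in either fit. Depth limits Prkag3 in VAT, at or near 3 counts.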
